A study of Danio rerio with 34 samples.

Results

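This account covers the expression step from hemogenic endothelial cells (HECs) to hematopoietic stem and progenitor cells (HSPCs) in zebrafish siblings of *dnmt1* mutants. It compares 3 libraries of sibling HECs (replicates 1, 2 and 3) with 2 of sibling HSPCs (replicates 2 and 3). These are 5 of the 16 RNA-seq libraries of the series, taken by the column names of the deposited count table. The other 11 libraries hold sibling endothelial cells (ECs) and the same 3 cell types from *dnmt1* mutants (allele s872), and the series of 34 samples also has bisulfite libraries that were not used here. Cells came from the trunk (the labels give the region as AGM) of embryos at 36 hours post fertilization (hpf) that carried the Tg(*kdrl*:mCherry/*runx1*:en-GFP) reporters, and 500 cells were sorted for each library. Every group, sibling or mutant, carried both reporters, and cells were chosen by reporter fluorescence. HECs were gated as positive for both reporters, and the gate that defined the HSPCs is not given in the sources used here. The sample labels describe a single-cell sort and a tagged 3′ protocol instead of pools of cells. The description label of the RNA-seq samples names the opposite genotype to its title, so the columns named for mutants are given beside the main result. The p-values come from a fit of all 16 libraries, so they measure a spread pooled over the 6 groups, other cell types and mutants included. Nothing in the labels says that the numbered libraries came from separate clutches, so that spread may be technical.

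HSPCs of the embryo arise in the floor of the dorsal aorta, where ECs acquire a hemogenic program, round up and leave the vessel wall in the endothelial-to-hematopoietic transition. Runx1, its partner Cbfb and Gata2b are transcription factors of this program, Myb marks nascent HSPCs, and the endothelial junction and arterial genes, Notch ligands and receptors among them, are switched down as the cells leave. At the same age the embryo holds primitive red cells and myeloid cells of earlier origin, which do not come from the aorta.

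The 5 libraries held between 3735369 and 13060881 counts on genes. The 2 HSPC libraries correlated with each other at 0.71 (log CPM of tested genes), against 0.79 to 0.87 among the HEC libraries and 0.60 to 0.71 between the groups. Of 11930 tested genes at 10 CPM or more in an HSPC library (CPM are gene counts scaled to the adjusted total of the library), 1243 were over 10-fold apart between the 2, 297 higher in replicate 2 and 946 higher in replicate 3. In the HEC libraries 1429 of 11490 such genes spanned more than 10-fold, and replicate 2 stood apart by its neural and leukocyte genes as given with those lists. Throughout, levels are given for HEC replicates 1, 2 and 3 and HSPC replicates 2 and 3, in that order. *dnmt1* itself, the gene disrupted in the mutants, was at 119, 138 and 138 CPM in HECs and 182 and 79.2 CPM in HSPCs. In the 8 mutant libraries it ranged from 77.6 to 234.8 CPM, which overlapped the sibling range and gives no check of the genotype labels.

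The libraries labelled HSPC did not carry the defining HSPC markers at a higher level than the HEC libraries. *runx1*, whose enhancer drives one of the reporters, was at 23.7, 19.1 and 78.9 CPM in HECs and 1.44 and 9.84 CPM in HSPCs (log2 fold change -2.81, SE 0.93, adjusted p = 0.153). The values did not overlap, with HEC above HSPC, and the difference did not pass the test. *myb* was at 150.3, 56 and 124 CPM in HECs and 16.4 and 11.5 CPM in HSPCs (log2 fold change -2.98, SE 1.37, adjusted p = 0.281), again with all HEC libraries above. *gata2b*, a hemogenic transcription factor upstream of *runx1*, was at 75, 35.6 and 48 CPM in HECs and 0 and 0.085 CPM in HSPCs, which is 1 read over both HSPC libraries, and a ratio of pooled counts of 766-fold (95% counting interval 137 to 30275) in favour of HECs (adjusted p = 0.0225). This call was lost when HEC replicate 1 (adjusted p = 0.0558), HSPC replicate 2 (0.139) or HSPC replicate 3 (0.138) was left out. *ptprc*, which encodes the pan-leukocyte phosphatase Cd45, was at 200.1, 56.5 and 344 CPM in HECs and 2.31 and 71.9 CPM in HSPCs, and *spi1b*, the myeloid factor Pu.1, was at 458, 95.3 and 782 CPM in HECs and 30.6 and 211 CPM in HSPCs. Both overlapped between the groups and neither was called. The HEC libraries also held myeloid RNA. The neutrophil and mast cell list summed to 15396, 2665 and 28698 CPM in HEC replicates 1, 2 and 3. The endothelial list summed to 4936, 7061 and 5038 CPM in the same libraries. The part of myeloid RNA in the HEC levels of *runx1*, *myb*, *spi1b* and *ptprc* was not tested. *gata1a*, the erythroid transcription factor, was the one blood marker of the set with both HSPC libraries above all HEC libraries, at 11.8 and 6.37 CPM in the HSPC libraries against 0.869, 2.76 and 0.237 CPM in the HEC libraries (log2 fold change 2.83, SE 1.35, adjusted p = 0.313), and it did not pass the test. *itga2b*, the Cd41 integrin of thrombocytes and HSPCs, had no read in any of the 5 libraries. The group is therefore named below by its label only, as HSPCs or the HSPC libraries. Values given for HSPCs are those of the libraries with that label and are not read as those of a checked HSPC population.

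**Figure D1:**
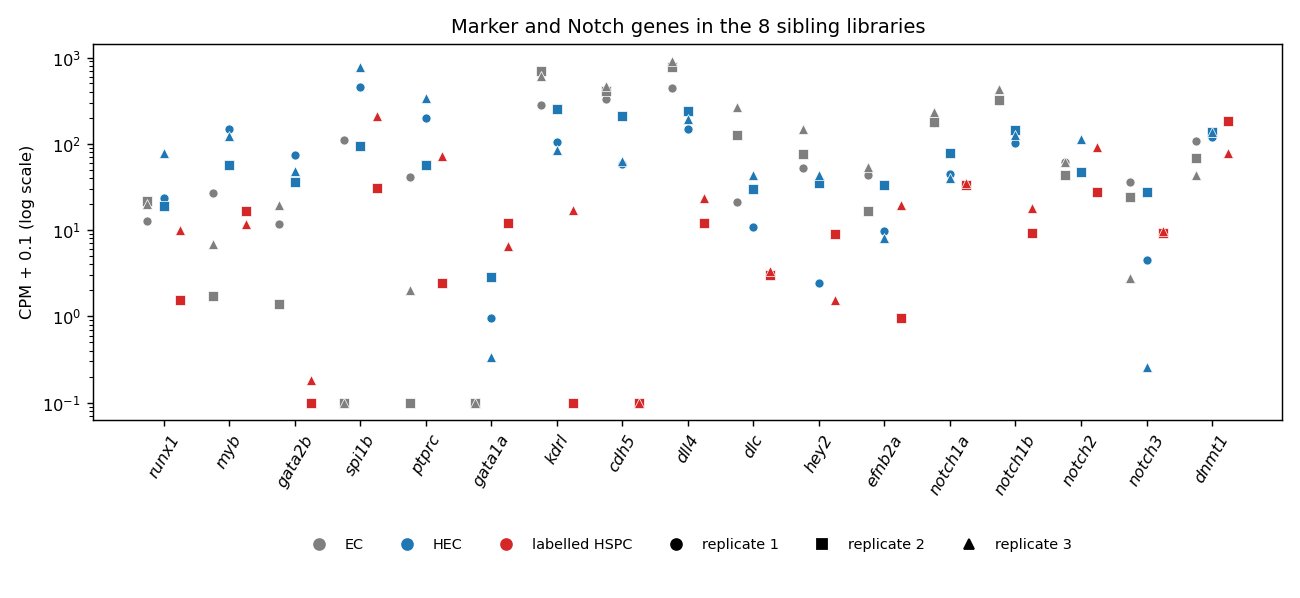
Level of 17 marker and Notch genes in the 8 sibling libraries, as CPM + 0.1 on a log scale, with ECs in grey, HECs in blue and the libraries labelled HSPC in red, and the marker shape giving the replicate number. *gata2b* and *cdh5* lie at or near 0 in both HSPC libraries, *runx1* and *myb* lie below all HEC libraries, and *gata1a* lies above them.

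Of the 47048 genes listed, 21161 had enough counts to be tested with edgeR's quasi-likelihood test, and 294 (1.39%) were called at a Benjamini-Hochberg adjusted p under 0.05 and a change of 1 or more on the log2 scale in either direction. All changes are given as HSPC minus HEC. 99 genes (0.468% of those tested) rose and 195 (0.922%) fell. At an unadjusted p under 0.05 with the same fold minimum there were 3578 genes. The median log2 fold change was 6.54 among the genes that rose and -4.28 among those that fell, against 0.00 over all tested genes. With a floor of 3 counts over the group for genes absent from one side (27 of those that rose had no read in any HEC library, and 31 of those that fell had none in an HSPC library) the medians were 6.49 and -4.09. In 293 of the 294 the 2 groups did not overlap, against 33.9% of all tested genes, the exception being *tpm2* (tropomyosin, chosen after its values were seen). With the replicate number as a block, 588 genes were called (2.78%), 222 higher (1.05%) and 366 lower (1.73%), and 276 of the 294 were among them. Fewer cells of a type and less RNA per cell cannot be told apart in these pooled cells.

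The count depended on single libraries. It was 143 (25 higher, 118 lower) without HEC replicate 1, 142 (14 higher, 128 lower) without HEC replicate 3, 105 (34 higher, 71 lower) without HSPC replicate 2, 204 (39 higher, 165 lower) without HSPC replicate 3 and 325 (148 higher, 177 lower) without HEC replicate 2. Without 1 HEC library, 139 to 214 of the 294 stayed called. No called gene changed sign in any of these 5 fits. The groups did not overlap in 293 of the 294, which left little room for a change of sign, so this is no separate check. Fitted on the 5 libraries alone, edgeR called 0 of 16558 genes, with 2557 at an unadjusted p under 0.05 and the fold minimum, while DESeq2 on the same 5 libraries called 1811, 69.4% of them higher. DESeq2 on all 16 libraries called 1544, of which 867 (56.2%) were higher against 33.7% in the edgeR fit, so which direction holds more calls turned with the tool.

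**Figure D2:**
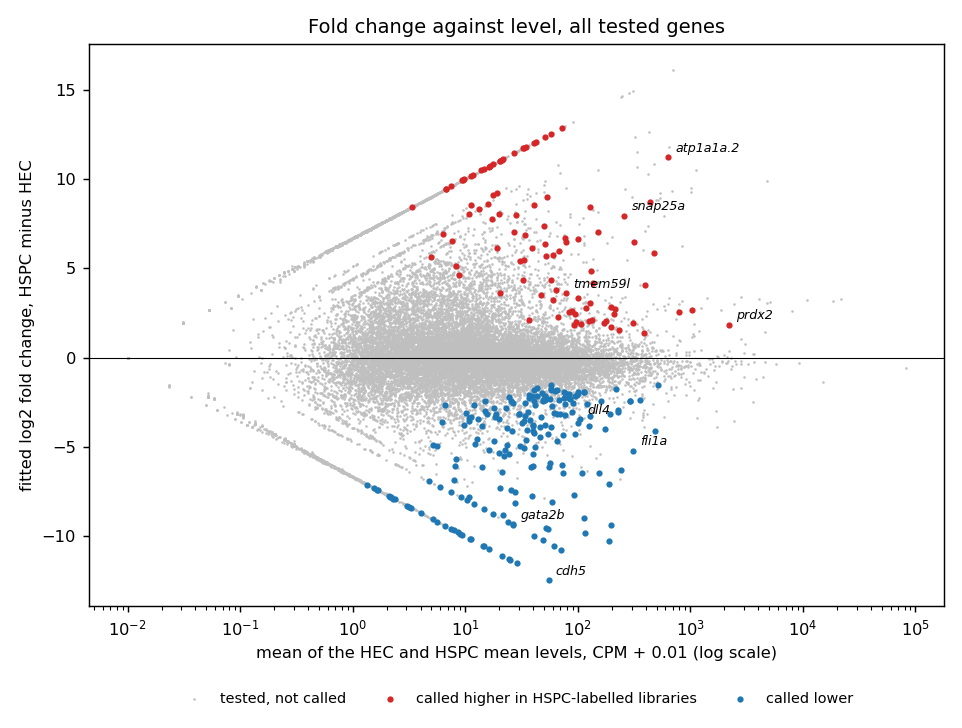
Fitted log2 fold change (HSPC minus HEC, vertical axis) against the mean of both group levels (CPM + 0.01, log scale) for the 21161 tested genes, with the 99 genes called higher in red, the 195 called lower in blue and all others in grey. The straight rays at the upper and lower edges are genes with no read in one of the groups, whose fitted value depends on the prior count, and *cdh5* is one of them.

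Endothelial genes were lower in the HSPC libraries. All 31 lists used here and below were chosen with earlier results of these data known. Their counts of calls beside the share of all tested genes are therefore descriptions and not tests. Of 44 tested members of the endothelial list 22 fell, against 0.922% of all tested genes, and none rose. With the replicate block 25 fell, against 1.73% of all tested genes. The median log2 fold change of the 44 was -4.83, against 0.00 over all tested genes. The summed level of the list was 4936, 7061 and 5038 CPM in HEC replicates 1, 2 and 3 and 1573 and 1818 CPM in HSPC replicates 2 and 3, so all HEC libraries lay above both HSPC libraries. Without HSPC replicate 2 the count was 14, and without any other single library it was 20 or 21.

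Genes for junction and surface proteins of the vessel wall were among the 22. *cdh5*, the VE-cadherin of endothelial adherens junctions, was at 57.9, 209 and 63.8 CPM in HECs and 0 in both HSPC libraries, at least 559.5-fold lower (adjusted p = 0.00307). *pecam1*, an endothelial cell-cell adhesion molecule, was at 94.7, 155 and 99.6 CPM in HECs and 0.865 and 0.17 CPM in HSPCs and fell by 8.09 on the log2 scale (SE 0.75, adjusted p = 1.40e-04). *cldn5b*, an endothelial tight junction claudin, was at 67.8, 149 and 80.3 CPM in HECs and 0 and 0.085 CPM in HSPCs. These 2 HSPC libraries held 1 *cldn5b* read between them, a ratio of pooled counts of 1398-fold (95% counting interval 251 to 55245). *clec14a*, an endothelial C-type lectin, also had 1 read there and was at 112, 175 and 78.4 CPM in HECs and 0 and 0.085 CPM in HSPCs. *sele*, which encodes E-selectin, was at 215, 602 and 328 CPM in HECs and 0 and 0.424 CPM in HSPCs and fell by 10.28 on the log2 scale (SE 1.01, adjusted p = 1.58e-04). *pcdh12*, *ecscr*, *tm4sf18* and *scarf1*, a protocadherin, a chemotaxis regulator, a tetraspanin-like protein and a scavenger receptor of endothelium, were at 33.7 to 132.0 CPM in the HEC libraries and at 0 to 0.255 CPM in the HSPC libraries. Of these only *ecscr* is in the endothelial list, and *pcdh12*, *tm4sf18* and *scarf1* lie outside the lists. In each of these genes every HEC library lay above both HSPC libraries. *rin3*, a Rab5 exchange factor outside the lists, was at 109, 144 and 168 CPM in HECs and 3.46 and 10.3 CPM in HSPCs and fell by 4.32 on the log2 scale (SE 0.49, adjusted p = 4.51e-04).

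Several signalling receptors and regulators of endothelium fell as well. *tie1*, an endothelial receptor tyrosine kinase, was at 28.1, 52.9 and 16.4 CPM in HECs and 0 in both HSPC libraries, at least 165-fold lower (adjusted p = 4.25e-04). *kdr*, one of the VEGF receptors, was at 25.8, 77.5 and 47 CPM in HECs and 0.865 and 0 CPM in HSPCs (adjusted p = 0.00578), and *flt1*, the VEGF decoy receptor, was at 1.74, 38.1 and 15.4 CPM in HECs and 0 and 0.085 CPM in HSPCs (adjusted p = 0.0225). The *flt1* call was lost without HSPC replicate 2 (adjusted p = 0.127) or HSPC replicate 3 (0.139). *kdrl*, whose promoter drives the mCherry reporter used in the sort, was at 104, 255 and 84.2 CPM in HECs and 0 and 16.9 CPM in HSPCs (adjusted p = 0.106), and it was not called. *egfl7*, a secreted endothelial factor and host of a microRNA, was at 224, 381 and 317 CPM in HECs and 4.33 and 2.8 CPM in HSPCs, and *ramp2*, a co-receptor for adrenomedullin, was at 135, 174 and 121 CPM in HECs and 0 and 3.9 CPM in HSPCs (adjusted p = 0.0066 and 0.00516). *robo4*, a receptor that stabilizes vessels, was at 39.7, 107 and 52.1 CPM in HECs and 2.02 and 3.23 CPM in HSPCs (adjusted p = 0.0066). *rasip1*, needed for vessel lumens, was at 151, 387 and 144 CPM in HECs and 0 and 0.679 CPM in HSPCs (adjusted p = 0.0074). The *robo4* and *rasip1* calls were lost without HSPC replicate 2 (adjusted p = 0.0775 and 0.071), and the *egfl7* call without HSPC replicate 2 (0.071) or HSPC replicate 3 (0.066). *ptprbl* and *ptprb*, rows for receptor phosphatases that act on Tie receptors, were at 16.8 to 20.3 and 51.5 to 56.2 CPM in the HEC libraries and at 0 and 3.73 to 8.36 CPM in the HSPC libraries. Of these rows *ptprbl* lies outside the lists. The *ptprb* call was lost without HSPC replicate 2 (0.0536) or HSPC replicate 3 (0.121).

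Transcription factors of endothelial identity were divided between calls and non-calls. *fli1a*, an ETS factor of endothelium and thrombocytes, was at 608, 559 and 627 CPM in HECs and 14.4 and 17.6 CPM in HSPCs and fell by 5.22 on the log2 scale (SE 0.49, adjusted p = 1.40e-04). It was called with every one of the 5 libraries left out in turn. *erg*, another ETS factor, was at 78.5, 119 and 49 CPM in HECs and 0 and 0.085 CPM in HSPCs (adjusted p = 0.00583), a call lost without HSPC replicate 2 (0.069) or HSPC replicate 3 (0.066). *etv2*, the ETS factor that starts the endothelial program, was at 289, 153 and 114 CPM in HECs and 0.577 and 1.1 CPM in HSPCs (adjusted p = 0.00263). *ets1* was at 82.8, 117 and 129 CPM in HECs and 8.07 and 17.2 CPM in HSPCs and fell by 3.1 on the log2 scale (SE 0.51, adjusted p = 0.00701), a call lost without HSPC replicate 2 (adjusted p = 0.0986). *sox18* was at 329, 284 and 315 CPM in HECs and 15 and 0.339 CPM in HSPCs (adjusted p = 0.127). Its relative *sox7* was at 223, 414 and 104 CPM in HECs and 0 and 15.7 CPM in HSPCs (adjusted p = 0.172), and neither passed the test. *lmo2* and *tal1*, list members that blood cells also express, overlapped between the groups, unlike *fli1a*. *lmo2* was at 372, 297 and 214 CPM in HECs and 324 and 311 CPM in HSPCs, and *tal1* at 203, 159 and 34.1 CPM in HECs and 257 and 164 CPM in HSPCs, and neither was called.

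Genes of veins and scavenger endothelium showed the same direction, with 8 of 17 tested members called lower, against 0.922% of all tested genes, none called higher and a median of -3.99. With the replicate block 10 were called lower, against 1.73% of all tested genes. *stab2*, a hyaluronan scavenger receptor, was at 569, 362 and 261 CPM in HECs and 0 and 0.934 CPM in HSPCs. *stab1*, a related scavenger receptor, was at 353, 371 and 395 CPM in HECs and 5.19 and 0.764 CPM in HSPCs. A second row that carries the *stab2* symbol was at 289.6, 200.2 and 201 CPM in HECs and 0 and 0.339 CPM in HSPCs and had the smallest p of all named genes (adjusted p = 8.15e-05). How reads were split between the 2 rows is not known. *mrc1a*, a mannose receptor, was at 581, 521 and 345 CPM in HECs and 0 and 11.6 CPM in HSPCs and passed narrowly (adjusted p = 0.0479, and 0.0644 to 0.115 in the 4 fits without a library that lost it). *flt4*, the receptor for lymphatic VEGF, was at 130.3, 178 and 133 CPM in HECs and 1.15 and 2.04 CPM in HSPCs, *aplnra*, an apelin receptor, at 181, 211 and 149 CPM in HECs and 14.1 and 4.75 CPM in HSPCs, and *dab2*, a clathrin adaptor, at 496, 290.3 and 260.3 CPM in HECs and 25.7 and 52 CPM in HSPCs. *gpr182*, a chemokine-scavenging receptor of venous and lymphatic endothelium outside the lists, was among the 15 named decreases at 111, 119.9 and 79.2 CPM in HECs and 0 and 0.17 CPM in HSPCs. The *flt4* call was lost without HSPC replicate 2 or 3, the *dab2* call without HEC replicate 1 or HSPC replicate 2, and the *aplnra* call without HSPC replicate 3 (adjusted p of 0.0521 to 0.166). The count of called venous members was 5 without HEC replicate 1, HSPC replicate 2 or HSPC replicate 3.

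**Figure D3:**
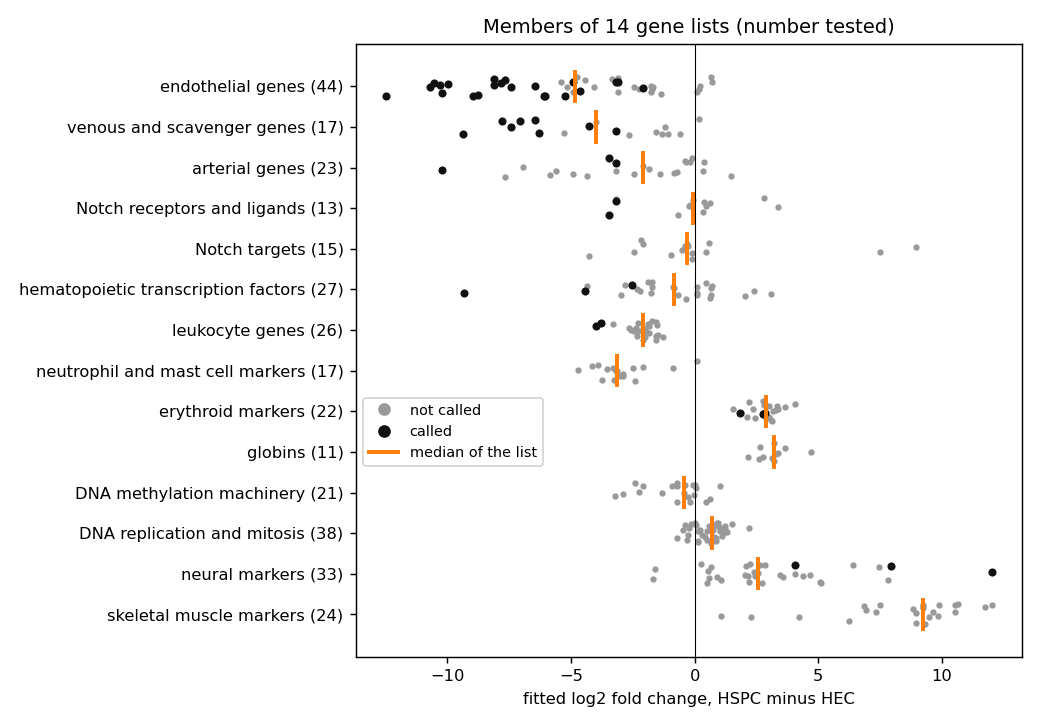
Fitted log2 fold change (HSPC minus HEC) of every tested member of 14 gene lists, one dot per gene with called genes in black and the list median as an orange bar, and the number of tested members in brackets. Endothelial and venous members reach the far left, all erythroid and globin members lie right of 0, and the skeletal muscle members lie far right without a call.

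Arterial genes were lower with fewer calls, 3 of 23 tested (0.922% of all tested genes were called lower) and a median of -2.09. With the replicate block 5 were called, against 1.73% of all tested genes. The 3 were *cldn5b*, *dll4* and *notch1b*. *dll4*, the arterial Delta ligand of Notch, was at 147, 238 and 192 CPM in HECs and 11.8 and 23.3 CPM in HSPCs and fell by 3.44 on the log2 scale (SE 0.54, adjusted p = 0.00578). The call was lost without HSPC replicate 2 (adjusted p = 0.0827). *notch1b*, a Notch receptor of the dorsal aorta, was at 103, 144 and 125 CPM in HECs and 9.23 and 18.1 CPM in HSPCs and fell by 3.17 on the log2 scale (SE 0.62, adjusted p = 0.0214). That call was lost without HSPC replicate 2 (adjusted p = 0.159) or HSPC replicate 3 (0.0606). *dlc*, a second Delta ligand, was at 10.7, 29.6 and 43.2 CPM in HECs and 2.88 and 3.23 CPM in HSPCs, with all HEC libraries above (adjusted p = 0.145, and 0.00606 with the replicate block, under which it was called). *hey2*, a Notch target that specifies arteries, overlapped between the groups at 2.32, 35.4 and 43.7 CPM in HECs and 8.94 and 1.44 CPM in HSPCs. *efnb2a*, the arterial ephrin ligand, was at 9.56, 33.1 and 8.06 CPM in HECs and 0.865 and 19.5 CPM in HSPCs and changed sign without HEC replicate 2 or HSPC replicate 2.

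The other Notch receptors were not called. *notch1a* was at 44.9, 78.5 and 40.3 CPM in HECs and 33.5 and 35 CPM in HSPCs, with a log2 fold change of -0.67 (SE 0.38, adjusted p = 0.386). *notch2* was at 46.9, 46.9 and 114 CPM in HECs and 27.4 and 91.5 CPM in HSPCs and *notch3* at 4.34, 27.9 and 0.158 CPM in HECs and 9.23 and 9.76 CPM in HSPCs, both overlapping between groups. Of 13 tested receptors and ligands 2 fell, against 0.922% of all tested genes, none rose and the median was -0.05. Fewer members were called without HSPC replicate 2 or HSPC replicate 3. With the replicate block 3 fell, against 1.73% of all tested genes. *jag1b* was at 16.2, 58.2 and 7.19 CPM in HECs and 41.2 and 27.3 CPM in HSPCs, and *dlb*, a Delta ligand of neurons, at 0, 16.1 and 0 CPM in HECs and 13.6 and 59.4 CPM in HSPCs, where HEC replicate 2 was the one HEC library with reads. None of 15 tested Notch targets was called (median -0.29). The smallest p belonged to *nrarpb*, a feedback inhibitor, at 50.7, 31.6 and 26.4 CPM in HECs and 7.5 and 8.66 CPM in HSPCs (adjusted p = 0.12), and next was *her4.2*, a neural Notch effector, at 0, 0.251 and 0 CPM in HECs and 28.6 and 1.78 CPM in HSPCs (adjusted p = 0.174). Among 24 tested modifiers and members of the transcription complex none was called, with *maml1*, a coactivator, at 28.1, 21.1 and 21.6 CPM in HECs and 10.1 and 1.61 CPM in HSPCs (adjusted p = 0.28).

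Hematopoietic transcription factors were unevenly distributed. Of 27 tested, 3 fell, against 0.922% of all tested genes, none rose and the median was -0.83. Beside *gata2b*, *hhex*, a homeobox factor of endothelium and early blood, was at 69.8, 90.6 and 105 CPM in HECs and 2.02 and 5.86 CPM in HSPCs and fell by 4.44 on the log2 scale (SE 0.59, adjusted p = 0.00181), and held in all 5 fits without a library. *cbfb*, the Runx1 partner, was at 193, 93.3 and 180.4 CPM in HECs and 12.4 and 40.5 CPM in HSPCs (adjusted p = 0.0496, and up to 0.266 without HEC replicate 1, HEC replicate 3 or HSPC replicate 2). Other members were not called. *ikzf1*, the lymphoid factor Ikaros, was at 135, 106 and 210.4 CPM in HECs and 170.2 and 151 CPM in HSPCs (adjusted p = 0.991). *gfi1b*, an erythroid and thrombocyte repressor, was at 15.06, 34.6 and 21.3 CPM in HECs and 211 and 189.8 CPM in HSPCs and did not pass (adjusted p = 0.221). *cebpb*, a myeloid factor, was at 2829, 1939 and 6193 CPM in HECs and 403 and 1785 CPM in HSPCs (adjusted p = 0.303, and 0.00431 with the replicate block, under which it was called).

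Leukocyte genes had wide spread within each group. All 26 tested pan-leukocyte genes had a negative fitted value (median -2.07), against 10465 of all 21161 tested genes. Of the 26, 2 were called lower, against 0.922% of all tested genes. *wasa*, a Wiskott-Aldrich syndrome actin regulator, was at 99.6, 37.6 and 87.3 CPM in HECs and 5.19 and 5.69 CPM in HSPCs (adjusted p = 0.0299), and *cxcr4b*, the chemokine receptor for Cxcl12, was at 621, 66.7 and 298 CPM in HECs and 26.2 and 15.19 CPM in HSPCs (adjusted p = 0.0488). Neither was called without HEC replicate 1, HEC replicate 3, HSPC replicate 2 or HSPC replicate 3. *lcp1*, the leukocyte plastin, was at 2446, 632 and 4152 CPM in HECs and 81.3 and 1388 CPM in HSPCs and was not called (adjusted p = 0.583). The summed pan-leukocyte level was 10121, 2423 and 14896 CPM in HEC replicates 1, 2 and 3 and 366 and 4131 CPM in HSPC replicates 2 and 3, so HSPC replicate 3 lay above HEC replicate 2 and the groups overlapped.

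None of 17 tested neutrophil and mast cell markers was called (median -3.15), although their sum reached 15396, 2665 and 28698 CPM in HEC replicates 1, 2 and 3 and 804 and 3383 CPM in HSPC replicates 2 and 3. *mpx*, the neutrophil myeloperoxidase, was at 4531, 419 and 8450.4 CPM in HECs and 203 and 568 CPM in HSPCs, and *srgn*, the granule proteoglycan, at 1670.0, 170.4 and 1356 CPM in HECs and 103 and 111 CPM in HSPCs. HEC replicates 1 and 3 carried most of this signal. The part of these myeloid genes in the HEC level of other blood genes was not tested. None of 16 macrophage, 10 lymphoid and 14 cytokine receptor genes tested was called either, with *mpl*, the thrombopoietin receptor of HSPCs, at 7.53, 5.27 and 3.32 CPM in HECs and 0 in both HSPC libraries (adjusted p = 0.109). The macrophage genes *csf1ra*, *mpeg1.1*, *marco* and *mfap4* were at 0 in HSPC replicate 2 and at 49.6, 13.4, 159 and 93.2 CPM in HSPC replicate 3. Another member, *lgmn*, was at 528, 489 and 617 CPM in HECs and 110 and 383 CPM in HSPCs. The macrophage sum was 903, 757 and 2286 CPM in HECs and 295 and 1701 CPM in HSPCs, and the groups overlapped. Of 13 tested thrombocyte markers *fli1a* was called lower, against 0.922% of all tested genes. With the replicate block *gp9*, a platelet glycoprotein, was also called, higher (adjusted p = 0.187, and 0.0288 with the block), against 1.05% of all tested genes.

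Red cell genes had higher levels in the HSPC libraries. All 22 tested erythroid markers and all 11 tested globins had a positive fitted value, with medians of 2.88 and 3.22. Over all 21161 tested genes 10687 had a positive value. None of the 11 globins was called. The summed erythroid level was 5809, 5175 and 3646 CPM in HEC replicates 1, 2 and 3 and 34199 and 32744 CPM in HSPC replicates 2 and 3, and did not overlap. 3 erythroid members were called, against 0.468% of all tested genes called higher. *prdx2*, the abundant red cell peroxiredoxin, was at 1247, 881 and 752 CPM in HECs and 3798 and 3028 CPM in HSPCs (log2 fold change 1.83, SE 0.39, adjusted p = 0.0347). *uros*, a heme synthesis enzyme, was at 62.8, 51.2 and 51.1 CPM in HECs and 372 and 367 CPM in HSPCs (log2 fold change 2.75, SE 0.60, adjusted p = 0.0365). *creg1*, a secreted glycoprotein, was at 51.3, 43.7 and 51 CPM in HECs and 341 and 358 CPM in HSPCs (log2 fold change 2.84, SE 0.54, adjusted p = 0.0189). The HSPC pairs of these 3 genes were close together. All 3 calls were lost whenever any 1 of the 5 libraries was left out, the erythroid count then being 0, with adjusted p up to 0.165 for *prdx2*, 0.142 for *uros* and 0.0761 for *creg1*. With the replicate block 8 were called, against 1.05% of all tested genes.

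Structural and transport genes of red cells had large differences without a call. *slc4a1a*, the band 3 anion exchanger, was at 1121, 1102 and 920.5 CPM in HECs and 8975 and 9253 CPM in HSPCs (adjusted p = 0.441), and *cahz*, the red cell carbonic anhydrase, at 1070.0, 843 and 393 CPM in HECs and 7542 and 7319 CPM in HSPCs (adjusted p = 0.414). *sptb*, the red cell spectrin, was at 152, 186 and 71.6 CPM in HECs and 998 and 1052 CPM in HSPCs (adjusted p = 0.0521, and 0.037 with the replicate block, under which it was called). *klf1*, the erythroid Krüppel-like factor, was at 44.9, 64.2 and 33.7 CPM in HECs and 307 and 343 CPM in HSPCs (adjusted p = 0.304). Globins differed more between the 2 HSPC libraries. Their sum was 19367, 17201 and 3324 CPM in HEC replicates 1, 2 and 3 and 192110.0 and 37835 CPM in HSPC replicates 2 and 3, and they took 17.5% and 3.85% of gene counts in HSPC replicates 2 and 3 against 0.336 to 1.84% in the HEC libraries. *hbbe3*, an embryonic beta globin, was at 832, 525 and 131 CPM in HECs and 9713 and 532 CPM in HSPCs (adjusted p = 0.339). Embryonic globin genes are near-identical copies, so the split of reads among them is uncertain, and leaving all of them out of the table gave 273 calls in place of 294.

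**Figure D4:**
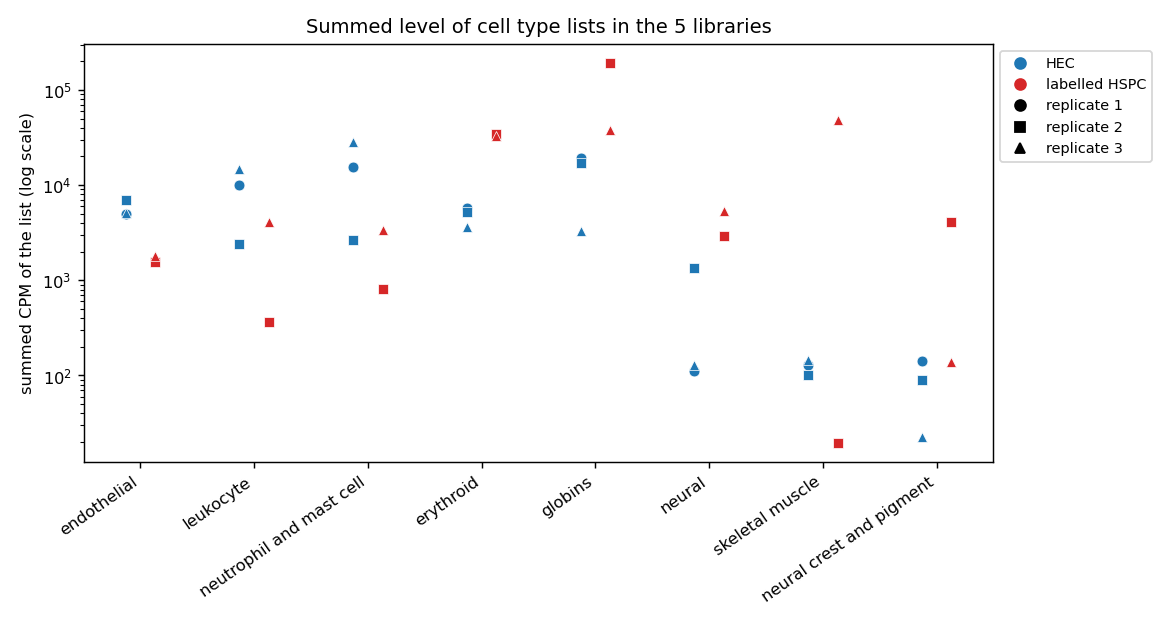
Summed CPM (log scale) of 8 cell type lists in each of the 5 libraries, HECs in blue and the libraries labelled HSPC in red, with the marker shape giving the replicate number. Erythroid, globin and neural sums are higher in both HSPC libraries, endothelial sums are lower, and skeletal muscle and pigment sums are high in 1 HSPC library each.

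Markers of other tissues differed as well. Neural markers had 3 of 33 tested genes called, all higher, against 0.468% of all tested genes, and a median of 2.58. This list too was chosen with earlier results of these data known, so the count is not a test. Their sum was 113, 1336 and 128 CPM in HEC replicates 1, 2 and 3 and 2929.8 and 5308 CPM in HSPC replicates 2 and 3, with HEC replicate 2 above the other HEC libraries and below both HSPC libraries. *snap25a*, a synaptic SNARE protein, was at 0.869, 2.51 and 2.69 CPM in HECs and 199 and 835 CPM in HSPCs (log2 fold change 7.94, SE 1.46, adjusted p = 0.0169), a call kept without HSPC replicate 2 and lost in the other 4 fits without a library (adjusted p = 0.0513 to 0.0895). *mab21l1*, a developmental regulator of eye and brain, was at 0 in all HEC libraries and 60.3 and 103 CPM in HSPCs, at least 548-fold higher (adjusted p = 0.0112). *tuba1c*, an alpha tubulin of differentiating neurons, was at 12.5, 96.9 and 25.6 CPM in HECs and 503 and 990.3 CPM in HSPCs (log2 fold change 4.05, SE 0.76, adjusted p = 0.0159). The *tuba1c* call was lost without HEC replicate 3 or HSPC replicate 3, and that of *mab21l1* without HEC replicate 3. *elavl4*, a neuronal RNA-binding protein, was at 0, 70.8 and 0.079 CPM in HECs and 349 and 631 CPM in HSPCs and was not called (adjusted p = 0.301). Leaving out HEC replicate 2 raised the neural count to 11, leaving out HEC replicate 3 took it to 0 and leaving out HSPC replicate 3 to 1. Among the defining neural genes *gfap* and *tlx3b* were at 0 in HSPC replicate 2.

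Some tissue markers were high in 1 HSPC library only. The skeletal muscle sum was 128, 101 and 145 CPM in HEC replicates 1, 2 and 3 and 19.6 and 48756 CPM in HSPC replicates 2 and 3, 2490 times higher in replicate 3 than in replicate 2. *actc1b*, a muscle actin, was at 8.4, 18.8 and 3.87 CPM in HECs and 0 and 19302 CPM in HSPCs, and *ttn.1*, a titin, at 1.45, 0 and 0.079 CPM in HECs and 0 and 1329.5 CPM in HSPCs. None of 24 tested muscle genes was called. With the replicate block 3 were called higher, *ttn.1* among them, against 1.05% of all tested genes. The list median of 9.24 (8.89 with genes absent from a group at their bound) rests on HSPC replicate 3. Pigment cell genes were high in replicate 2. *tyrp1b*, a melanin synthesis enzyme, was at 13.6, 0.251 and 0.79 CPM in HECs and 2301 and 2.63 CPM in HSPCs, and *dct* at 11.6, 0 and 0 CPM in HECs and 797 and 0 CPM in HSPCs, and none of 17 tested members was called. *cldnb*, an epithelial claudin in the epidermis list, was at 11.9, 907 and 6.95 CPM in HECs and 309 and 270.4 CPM in HSPCs, high in HEC replicate 2 and in both HSPC libraries. The sum of that list was lower in the HSPC libraries, at 8341, 4904 and 7282 CPM in HECs and 1298 and 2666 CPM in HSPCs. Its member *pfn1* was at 8156, 3129 and 7067 CPM in HECs and 529 and 1690 CPM in HSPCs. *pfn1* made up most of the sum in every HEC library, and the lower sum rests on this gene. *krt8* was at 137, 395 and 138 CPM in HECs and 45.6 and 109 CPM in HSPCs. Of 22 tested members 12 had a positive and 10 a negative fitted value. In the kidney and gut list 1 of 14 tested genes was called, higher, against 0.468% of all tested genes. It was *lhx1a*, a homeobox factor of pronephros and neurons, at 0, 0.251 and 0 CPM in HECs and 33.2 and 30 CPM in HSPCs (adjusted p = 0.0429, and 0.065 to 0.165 with any 1 HEC library left out). The call was also lost without HSPC replicate 2 (log2 fold change 8.60) or HSPC replicate 3 (8.65). None of 22 epidermis, 21 mesenchyme and 10 notochord markers tested was called. With the replicate block 1 epidermis marker was called higher, *icn2* (adjusted p = 0.0254), against 1.05% of all tested genes. The part of RNA from these tissues in the calls was not tested.

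The 15 named increases were those with the smallest p among genes that rose, whose groups did not overlap and whose symbol was not a placeholder. The smallest p was that of *tmem59l*, a membrane protein of neurons, at 11.9, 16.8 and 7.19 CPM in HECs and 100.1 and 188 CPM in HSPCs (log2 fold change 3.60, SE 0.48, adjusted p = 0.00181), which held with any library left out. *nell2b*, a secreted neural factor, was at 0 in all HEC libraries and 39.2 and 131 CPM in HSPCs, at least 571-fold higher. *atp6v0cb*, a proton pump subunit, was at 5.21, 28.4 and 8.45 CPM in HECs and 198 and 316 CPM in HSPCs, and *syt2a*, a synaptotagmin of synaptic vesicles, at 0 in all HEC libraries and 22.2 and 109 CPM in HSPCs. *eif2ak1*, the heme-regulated translation kinase, was at 5.5, 11 and 17.9 CPM in HECs and 136 and 81.6 CPM in HSPCs (log2 fold change 3.23, SE 0.55, adjusted p = 0.00888). *dmtn*, the red cell membrane protein dematin, was at 27.8, 17.8 and 9.48 CPM in HECs and 206 and 157 CPM in HSPCs (log2 fold change 3.31, SE 0.58, adjusted p = 0.0105). *slc25a39* and *hebp2*, a mitochondrial carrier and a heme-binding protein, were at 96.1, 62.2 and 51.4 CPM in HECs and 303 and 268 CPM in HSPCs and at 31.3, 21.8 and 22 CPM in HECs and 173 and 129 CPM in HSPCs, respectively. Except for *tmem59l*, *nell2b* and *atp6v0cb*, each of these calls was lost in at least 1 of the 5 fits without a library, with adjusted p of at most 0.102.

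Further named increases also lay outside the lists. *atp1a1a.2*, a sodium pump alpha subunit, was at 1.45, 0 and 0.316 CPM in HECs and 1364 and 1184 CPM in HSPCs (log2 fold change 11.21, SE 1.83, adjusted p = 0.0138), a call lost without HEC replicate 3 (adjusted p = 0.078) or HSPC replicate 2 (0.0536). *kcnj1a.5*, an inward rectifier potassium channel, was at 0 in all HEC libraries and 40.4 and 41.3 CPM in HSPCs, at least 274-fold higher, and held in all 5 fits. Both genes belong to families of similar copies, so read assignment is uncertain. *ampd2a*, an AMP deaminase, was at 216, 245 and 221 CPM in HECs and 1509 and 1202 CPM in HSPCs, and *ell2*, an elongation factor, at 78.8, 87.6 and 48.6 CPM in HECs and 252 and 288 CPM in HSPCs. *foxo3b*, a stress-responsive forkhead factor, was at 48.4, 27.1 and 39.2 CPM in HECs and 168 and 138 CPM in HSPCs (log2 fold change 2.0, SE 0.38, adjusted p = 0.0166). The calls of *ampd2a*, *ell2* and *foxo3b* were lost without HEC replicate 3 or HSPC replicate 2, and that of *ell2* also without HSPC replicate 3 (adjusted p of 0.0517 to 0.102).

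Genes of DNA methylation, the cell cycle and matrix showed few calls. None of 21 tested methylation genes passed (median -0.44). *dnmt1* had a log2 fold change of -0.01 (SE 0.48), whose sign changed with the scaling. *dnmt3ba*, a de novo methyltransferase, was at 908, 473 and 659 CPM in HECs and 97.5 and 50.2 CPM in HSPCs (adjusted p = 0.121, and 0.0318 with the replicate block, under which it was called). *dnmt3bb.1*, a de novo methyltransferase of HSPCs, was at 248, 132 and 161 CPM in HECs and 38.1 and 11.2 CPM in HSPCs (adjusted p = 0.164). None of 38 replication and mitosis genes passed (median 0.72), with *ccna2*, a mitotic cyclin, at 164, 108 and 139 CPM in HECs and 349 and 271 CPM in HSPCs (adjusted p = 0.131). Of 32 adhesion and EMT genes 3 fell, *cldn5b*, *cdh5* and *mmp14b*, against 0.922% of all tested genes. *mmp14b*, a membrane matrix protease, was at 16.8, 40.1 and 14.1 CPM in HECs and 0.577 and 3.48 CPM in HSPCs (adjusted p = 0.0465, lost without any 1 HEC library). The call was also lost without HSPC replicate 2 (log2 fold change -2.70) and kept without HSPC replicate 3 (-5.32). In the matrix list 2 of 26 tested genes were called, against 1.39% of all tested genes. *col6a1*, a collagen VI chain, rose from 0, 0.251 and 0.158 to 2.6 and 27.7 CPM. *lamb1b*, a laminin chain, fell to 0 in both HSPC libraries (adjusted p = 0.0456, and 0.0542 with the replicate block, under which it was not called). The *col6a1* call was lost in 3 and the *lamb1b* call in 4 of the 5 fits without a library. Of 15 flow responsive, 28 inflammatory, 27 BMP and TGF-beta, 21 p53 and 29 glycolysis genes tested none was called. With the replicate block 3 inflammatory genes were called lower, *tnfrsf1a*, *myd88* and *socs3a* (adjusted p = 0.0257, 0.0416 and 0.0481), against 1.73% of all tested genes. Under the block 1 glycolysis gene was called higher, *pfkma* (adjusted p = 0.0247), against 1.05% of all tested genes. *klf2a*, a flow-induced factor of endothelium, was at 6.08, 19.8 and 6.24 CPM in HECs and 0 and 0.849 CPM in HSPCs (adjusted p = 0.0627), *tnfrsf1a*, a TNF receptor, at 153, 81.3 and 156 CPM in HECs and 10.7 and 51.4 CPM in HSPCs (adjusted p = 0.109), and *tgfb1a*, a TGF-beta ligand, at 19.1, 54.4 and 13 CPM in HECs and 2.88 and 4.92 CPM in HSPCs (adjusted p = 0.065).

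The same contrast in the columns named for *dnmt1* mutants, which shares no library with the sibling contrast but enters the same fit, gave 438 calls (2.07% of tested genes), 181 higher and 257 lower. 216 genes were called in both genotypes, all in the same direction, which is 73.5% of the sibling calls and 49.3% of the mutant calls. Of the 294 sibling calls 293 had the same sign in mutants, against 77.7% of all tested genes. The exception in sign was a second row under the symbol *dhrs3a*, chosen after its values were seen. Same-numbered libraries of the 2 genotypes deviated from their group means together (r = 0.25, 0.22 and 0.43 for HECs and 0.45 for HSPCs), so the mutant libraries are not independent of the sibling ones. 27 of 44 endothelial genes fell in mutants, against 257 of all 21161 tested genes. Side by side, the log2 fold change in siblings and mutants was -5.22 and -4.85 for *fli1a*, -3.44 and -5.33 for *dll4*, -3.17 and -1.46 for *notch1b*, 7.94 and 7.43 for *snap25a* and 1.83 and 1.32 for *prdx2*. *notch1b* and *prdx2* were not called in mutants (adjusted p = 0.183 and 0.0957).

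The difference between the genotypes was tested as an interaction term of genotype and step. None of 21161 genes was called (0% called), with 474 at an unadjusted p under 0.05 and the fold minimum, and DESeq2 called 22. 36 of the 294 sibling calls had an unadjusted interaction p under 0.05, and none an adjusted p below 0.99998. With 2 HSPC libraries for each genotype these values do not show that the step was alike in siblings and mutants.

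**Figure D5:**
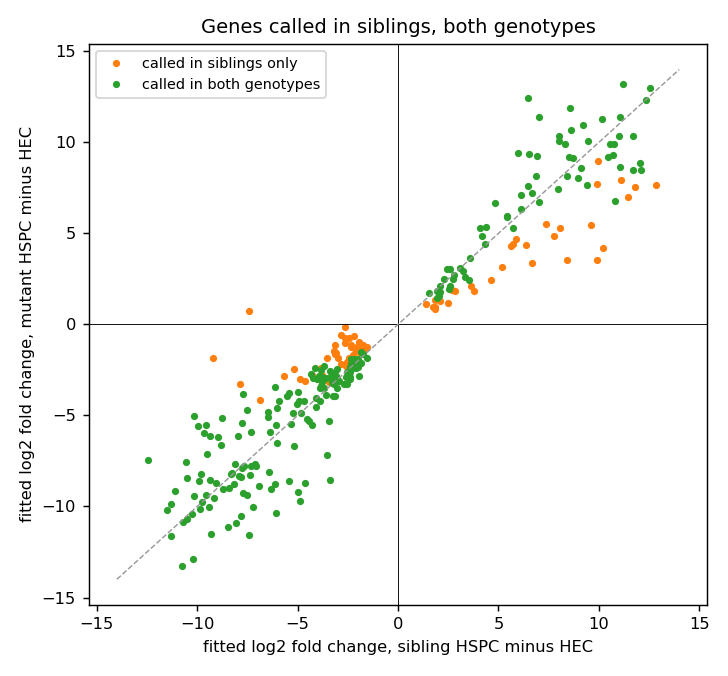
Fitted log2 fold change (HSPC minus HEC) in mutants against that in siblings for the 294 genes called in siblings, with the 216 also called in mutants in green, the other 78 in orange and the dashed line marking equal values. The genes were chosen by their values on the horizontal axis, and 293 of them have the same sign on the vertical axis.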

How the data were processed

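RNA-seq libraries of zebrafish ECs, HECs and HSPCs were analysed from 1 table of gene counts as deposited. The authors trimmed reads with cutadapt, aligned them to GRCz11 with HISAT2, and made whole-number counts per gene with HTSeq, without normalization. The gene annotation and the strand setting are not given in the sources used here. The closing rows for reads on no gene (43.2% of reads in the 5 libraries) were dropped.

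Groups came from the sample titles, and columns were matched to them by name. edgeR 4.0.16 (R 4.3.3) was fitted on all 16 libraries in 6 groups with TMM scaling, after filterByExpr had removed sparsely counted genes, by its quasi-likelihood test (robust option), with Benjamini-Hochberg adjustment over 21161 genes. A call needed an adjusted p under 0.05 and a change of at least 1 on the log2 scale. The SE given with a log2 fold change was not fitted directly. It is the absolute log2 fold change divided by the square root of the F statistic of the quasi-likelihood test. DESeq2 1.42.0, other scalings and filters, single libraries left out and a replicate block were the alternatives. Same-numbered HEC and HSPC libraries deviated from their group means together in all 4 pairs (r = 0.12, 0.22, 0.18 and 0.15). The 2 HSPC libraries of a genotype deviate by mirrored amounts, so these are not 4 independent values. HEC replicate 1, without a same-numbered HSPC library, was at r = 0.086 with HSPC replicate 2 in siblings and 0.026 with HSPC replicate 3 in mutants. The pairing was taken from the data because the labels only number the libraries. Blocked values are given where they change the call of a named gene or of a list.

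Named genes were the 15 with the smallest p in each direction. They were taken from genes with groups that do not overlap, a change of at least 1 on the log2 scale and no placeholder symbol of a clone or locus. Also named were fixed anchor genes and, from each list, the called members (up to 6) or those with the smallest p. In lists of other cell types the members with the highest levels were named too. Other named list members were chosen after their values were seen. The members and the 31 lists were chosen with earlier results of these data known. Where a group had no read, a floor of 3 counts over the group bounded the fold, and intervals and floors cover counting error only. The bisulfite files and the authors' tables of fold changes and p-values were not used.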

Additional observations from a re-analysis of the deposited data

How the results depend on the processing

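The 294 sibling calls became 268 with RLE size factors, 315 with no filter beyond 1 count, 90 with 10 counts in every library compared, 1544 with DESeq2 on 16 libraries and 5911 with DESeq2 at the adjusted p of 0.5 in the study's methods. On the 5 libraries alone they became 0 with edgeR and 1811 with DESeq2. Leaving out 1 library gave 105 to 325. With the replicate block, the pairing fit, there were 588. The 438 mutant calls became 132 with 10 counts in every library, 1916 with DESeq2 and 812 with the block, and 150 to 185 with 1 library left out. The interaction had 22 calls with DESeq2 and 0 otherwise. Of the 66 named called genes, 26 were called with each of the 5 libraries left out, and under the block 65 stayed called, the exception being *lamb1b*. RLE moved the median of all genes by 0.16 on the log2 scale. Low or overlapping genes changed sign. The log2 fold change of *efnb2a* ranged from -4.26 to 0.27 without 1 library and was 0.10 in the columns named mut, where *notch1a* was at 0.25. That of *notch2* ranged from -1.35 to 0.45 without 1 library. That of *notch3* was 1.31 with the block, 3.30 in the columns named mut and -0.76 to 2.19 without 1 library. That of *dnmt1* was 0.15 with RLE, 0.090 with no filter, 0.17 with 10 counts, 0.15 with DESeq2, 0.081 and 0.12 on the 5 libraries with edgeR and DESeq2, 0.10 without globins, 0.58 in the columns named mut and -0.69 to 0.45 without 1 library. For these the cause was not tested. The counts of called list members under other settings and the count of calls in the columns named mut as an alternative were added after seeing the data.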

Other observations

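Called genes outside the lists, chosen after their values were seen, are given here as single values. *stxbp1a*, a syntaxin-binding protein of vesicle release, was at 3.19, 1.76 and 1.9 CPM in HECs and 140.4 and 455 CPM in HSPCs (adjusted p = 0.0225 with edgeR's quasi-likelihood test). *nefma*, a neurofilament, was at 0 in all HEC libraries and 53.9 and 177 CPM in HSPCs (adjusted p = 0.028), and *chata*, the enzyme that makes acetylcholine, was at 0 in all HEC libraries and 21.1 and 60.1 CPM in HSPCs (adjusted p = 0.0456). Beside *atp1a1a.2* the sodium pump beta subunit *atp1b1b* was at 0.29, 0 and 5.06 CPM in HECs and 899 and 849 CPM in HSPCs (adjusted p = 0.0324), low or absent in HECs and high in both HSPC libraries. The heme synthesis enzyme gene *hmbsb* was at 309.8, 279 and 247 CPM in HECs and 2009 and 1563 CPM in HSPCs (adjusted p = 0.0381). Among the genes that fell, the row of *mir126a*, an endothelial microRNA gene, was at 72.7, 54.5 and 19.8 CPM in HECs and 0 in both HSPC libraries (adjusted p = 0.00244). Whether reads on this row came from the microRNA or from a host transcript was not tested. The focal adhesion and actin crosslinking genes *zyx* and *actn4* were at 149, 141 and 189 CPM in HECs and 34.9 and 45.9 CPM in HSPCs and at 537, 574 and 689 CPM in HECs and 94.6 and 139 CPM in HSPCs, respectively (adjusted p = 0.0313 and 0.00263).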
